A study of Mus musculus with 12 samples.

Results

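Simple epithelial keratins are the keratins of single-layered epithelia. The 5 described here, *Krt7*, *Krt8*, *Krt18*, *Krt19*, and *Krt23*, were selected by name from the 38127 genes counted in each library, and the files held all 5. *Krt23* was chosen for its large difference between P2 and CD324+ cells, so its values are given as a description, without a test. RNA from 4 populations of Ter119-CD45- cells, sorted from liberase-digested fetal liver (FL) of C57BL/6 mouse embryos, was sequenced with 3 libraries per population. At embryonic day 14.5 (E14.5) these were CD54+CD31- cells, called CD324+ cells here after the name used in the study, CD54+CD31+ cells (CD31+ cells), and CD54-CD31-Kit+CD24+ cells (P2 cells), and at E18.5 CD54+CD31- cells. No transgene, deletion, or treatment was applied. Each library is a bulk sample of sorted cells, and the study states that its E14.5 samples came from independent litters. In such samples fewer cells of a type and less RNA per cell cannot be told apart.

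Keratins are intermediate filament proteins of epithelial cells, and each filament is built from pairs of a type I (acidic) and a type II (basic) keratin. *Krt8* (type II) and *Krt18* (type I) form the pair present in hepatoblasts and hepatocytes. *Krt7* (type II) and *Krt19* (type I) are known from biliary epithelium and also from other simple epithelia, including those of the lung and the mesothelium, and hepatocytes have little of either. *Krt23* is a type I keratin. Endothelial cells carry vimentin instead.

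In GRCm38, the type II genes and *Krt18* lie on chromosome 15 and the other type I genes on chromosome 11. *Krt7* (ENSMUSG00000023039) spans 101411043 to 101430313 on the plus strand, with 9 exons in the transcript that has the most, as counted for each gene here. *Krt8* (ENSMUSG00000049382) spans 101996698 to 102004482 on the minus strand, with 9 exons. *Krt18* (ENSMUSG00000023043), with 7 exons, spans 102028180 to 102032027 on the plus strand, so the starts of *Krt8* and *Krt18* face away from each other across 23698 bases. On chromosome 11, *Krt19* (ENSMUSG00000020911) spans 100140810 to 100148665 and *Krt23* (ENSMUSG00000006777) 99477974 to 99493137, both on the minus strand, with 6 and 8 exons. *Krt8* overlaps the gene model Gm36026 and *Krt7* overlaps Gm671, on opposite strands. Neither model has counts of its own here, and whether the counting used strand is not given in the sources used here, so reads of these models cannot be told apart from those of *Krt8* and *Krt7*. The pseudogene *Krt8-ps* had 0 counts in all 12 libraries.

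RefSeq promoter windows (GRCm38.p6) matched *Krt7*, *Krt8*, *Krt18*, and *Krt23*. The 250 bases before the RefSeq start were searched on both strands for 6 short motifs. The E-box CACCTG, the form known to be bound by the Snail and Zeb repressors of epithelial genes, was in the windows of all 4, and in 17.2% of the 32851 windows searched. It is 1 case of the general E-box CANNTG, which was in all 4 and in 66.2% of windows. The GC box GGGCGG was in the *Krt7* window and in 32.7% of windows. TATAAA (12.4% of windows), CCAAT (33.8%), and TGANTCA (6.75%) were in none of the 4. For 3 of them the site is shown with its flanks, 30 bases on the strand of each gene, because it is the more specific of the 2 motifs found in all 4 windows. Capitals mark the E-box.
Krt18, chr15:102027990-102028019, plus strand: aggggctaacacCACCTGctatcctttgtg
Krt7, chr15:101412347-101412376, plus strand: ccgccctgtcccCACCTGtgtgcgctcagc
Krt23, chr11:99493335-99493364, minus strand: agatctgctaccCACCTGgtggcctgggcc
The sites began 214 bases before the RefSeq start in *Krt18*, 44 in *Krt7*, and 232 in *Krt23*. A match is a description of the letters and not evidence that the site is bound.

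Total counts per library ranged from 40714017 to 64368883. Levels are counts relative to the library size after TMM normalization over the 12 libraries (CPM). Markers checked the labels. The summed level of 15 hepatoblast genes was 89738 to 102935 CPM in CD324+ libraries, 1094 to 1248 in CD31+ libraries, and 869 to 884 in P2 libraries, while 8 endothelial genes summed to 9094 to 9643 CPM in CD31+ libraries and to at most 374 in the other E14.5 libraries. The E18.5 libraries stood apart in 2 ways. They held genes of lung epithelium, such as *Nkx2-1*, a transcription factor of lung and thyroid, at 377, 259, and 230 CPM, against 0 counts in every CD324+ library. Replicate 1 also had a summed hepatoblast level of 5930 CPM, against 51099 and 67057 CPM in replicates 2 and 3. The E18.5 fold changes of named genes, the shares, and the list counts are therefore also given without replicate 1. Age and the lung RNA of the E18.5 libraries cannot be told apart, with or without replicate 1. Below, a difference between the ages names this comparison only. The hepatoblast gene *Trf* stayed below 1 CPM in every group, and *Alas2*, an erythroid gene, had 0 counts in all 12 libraries, so a low count in these files need not mean a silent gene.

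*Krt8* and *Krt18* were abundant in the cells that carry hepatoblast genes and low in the other E14.5 cells. *Krt18* counts were 19102, 18302, and 22187 in CD324+ libraries, 478, 443, and 438 in CD31+ libraries, and 219, 313, and 301 in P2 libraries. *Krt8* counts in the same order were 8388, 8370, and 9403, then 210, 201, and 150, and then 149, 145, and 145. No CD324+ library overlapped a CD31+ or P2 library for either gene. The level of *Krt18* was 555 ± 18.9 CPM (SD, n = 3 libraries) in CD324+, 7.81 ± 0.826 in CD31+, and 5.78 ± 0.743 in P2 cells. For *Krt8* it was 244 ± 16.8, 3.24 ± 0.756, and 3.08 ± 0.319 CPM.

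In P2 against CD324+ cells, 2 of the 4 members tested were lower, beside 36.1% of the 15461 genes tested that were lower and 33.8% that were higher (edgeR's quasi-likelihood test, adjusted p below 0.05). *Krt18* fell, with a log2 fold change of -6.60 ± 0.14 (SE; adjusted p = 1.47e-10, edgeR), a 96.0-fold difference of the means. *Krt8* fell with a log2 fold change of -6.33 ± 0.19 (SE; adjusted p = 8.02e-10, edgeR), which is 79.4-fold. Beside these, the summed hepatoblast markers were 112-fold lower in P2 cells. Whether the remaining *Krt8* and *Krt18* counts of P2 cells came with the remaining hepatoblast RNA was not tested.

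In CD31+ against CD324+ cells the same 2 of 4 members were lower (34.0% of all genes tested were lower and 31.7% higher). The log2 fold change was -6.16 ± 0.13 for *Krt18* (SE; adjusted p = 2.40e-10, edgeR) and -6.24 ± 0.19 for *Krt8* (SE; adjusted p = 1.12e-09, edgeR). The means differed 71.1-fold and 75.3-fold, beside 84.3-fold for the summed hepatoblast markers. This comparison and the previous one share the CD324+ libraries.

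Between P2 and CD31+ cells, 1 of the 4 members tested was lower in P2 cells (39.4% of all genes tested were lower and 34.3% higher). It was *Krt18*, at a log2 fold change of -0.44 ± 0.11 (SE; adjusted p = 0.00505, edgeR). The lowest CD31+ library had 6.94 CPM and the highest P2 library 6.51 CPM. The call was lost without P2 replicate 1 (log2 fold change -0.28, adjusted p = 0.0732, edgeR) and with the 6 libraries fitted alone (adjusted p = 0.0544, edgeR). *Krt8* did not pass the test (log2 fold change -0.09 ± 0.17, SE; adjusted p = 0.656, edgeR). The summed hepatoblast markers were 1.32-fold higher in CD31+ than in P2 cells, beside 1.35-fold for *Krt18* and 1.05-fold for *Krt8*.

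**Figure D1:**
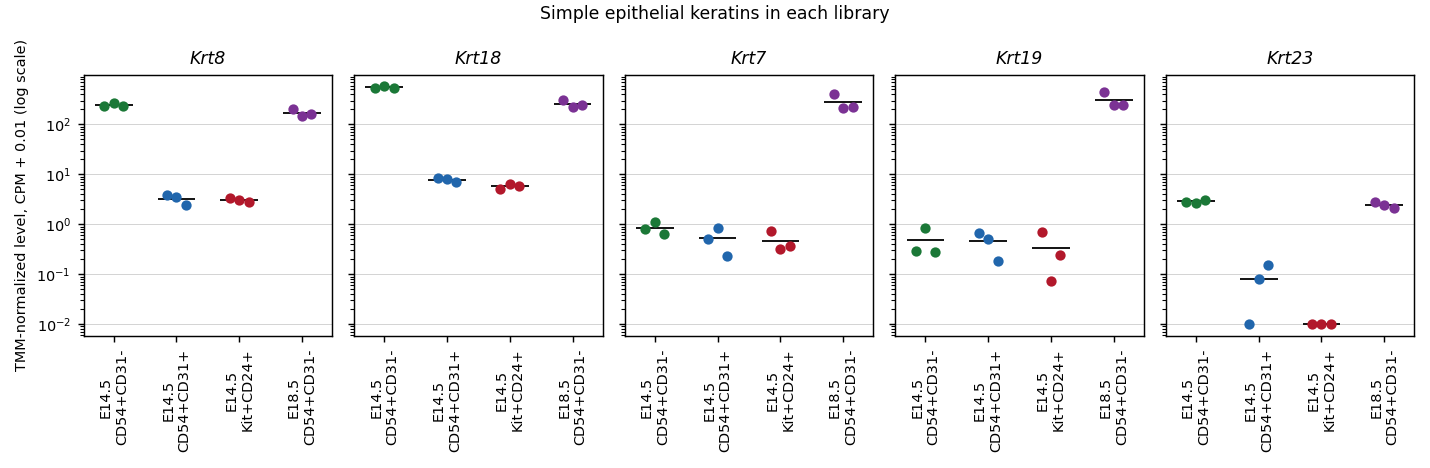
Level of each keratin in each of the 12 libraries, as TMM-normalized CPM plus 0.01 on a log axis, by population, where points are libraries and black lines the means of 3. Krt8, Krt18, and Krt23 are higher in both CD54+CD31- populations than in the CD54+CD31+ and Kit+CD24+ cells, with Krt23 at no more than 3.08 CPM, whereas Krt7 and Krt19 stay at or below 1.10 CPM in every E14.5 library and reach 213 CPM or more in every E18.5 library.

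*Krt7* and *Krt19* had few counts in all 3 E14.5 populations. *Krt7* had 28, 35, and 25 counts in CD324+ libraries, 28, 46, and 14 in CD31+ libraries, and 31, 15, and 19 in P2 libraries. *Krt19* had 10, 27, and 11, then 37, 28, and 11, and then 30, 3, and 12 counts. The 3 populations overlapped for both genes. Levels were 0.837 ± 0.245 CPM (SD, n = 3) for *Krt7* and 0.468 ± 0.331 CPM for *Krt19* in CD324+ cells, and none of the other E14.5 means was higher. In edgeR 0 of the 6 E14.5 comparisons of these genes passed the test, with 0 at an unadjusted p below 0.05 and 0 called by DESeq2. The log2 fold change nearest to passing was that of *Krt7* in P2 against CD324+ cells, -0.87 ± 0.54 (SE; adjusted p = 0.176, edgeR), and it ran from -1.32 to -0.64 with 1 library left out. At these counts a difference of this size was not detectable beyond the spread between libraries.

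At E18.5 both genes were among the abundant transcripts of CD54+CD31- cells. *Krt7* had 26601, 16487, and 15787 counts, and *Krt19* 28472, 19152, and 17649, so every E18.5 library lay far above every E14.5 library. In CPM these were 412, 213, and 219 for *Krt7* and 441, 248, and 244 for *Krt19*, and replicate 1 was the highest for both. The means were 336-fold (*Krt7*) and 664-fold (*Krt19*) those of CD324+ cells, and 258-fold and 526-fold without replicate 1.

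Against CD324+ cells, 2 of the 4 members tested were higher at E18.5 and 1 was lower, beside 35.9% and 33.5% of the 15863 genes tested. *Krt7* rose with a log2 fold change of 8.59 ± 0.44 (SE; adjusted p = 2.12e-05, edgeR) and *Krt19* with 9.60 ± 0.57 (SE; adjusted p = 2.90e-05, edgeR). Without E18.5 replicate 1 the log2 fold changes were 8.20 for *Krt7* and 9.26 for *Krt19*, with adjusted p = 4.67e-09 and 1.91e-08 (edgeR). *Krt18* fell by 0.90 ± 0.15 on the log2 scale (SE; adjusted p = 0.00182, edgeR), and by 1.06 without replicate 1 (adjusted p = 1.59e-05, edgeR). *Krt8* did not pass the test at -0.32 ± 0.15 (SE; adjusted p = 0.0898, edgeR), but passed it without replicate 1 (log2 fold change -0.48, adjusted p = 0.00163, edgeR).

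In the E18.5 libraries *Krt8* had 13042, 11465, and 11807 counts and *Krt18* 19840, 17356, and 18035. Their levels were 202, 148, and 164 CPM for *Krt8* and 307, 225, and 250 CPM for *Krt18*. All 3 lay below the CD324+ libraries for both genes, whose lowest were 232 and 540 CPM. The *Krt8* direction turned when counts were scaled to the plain library total, under which its mean was 203 CPM at E18.5 and 190.1 CPM in CD324+ cells, whereas *Krt18* stayed lower at 308 against 432 CPM.

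**Figure D2:**
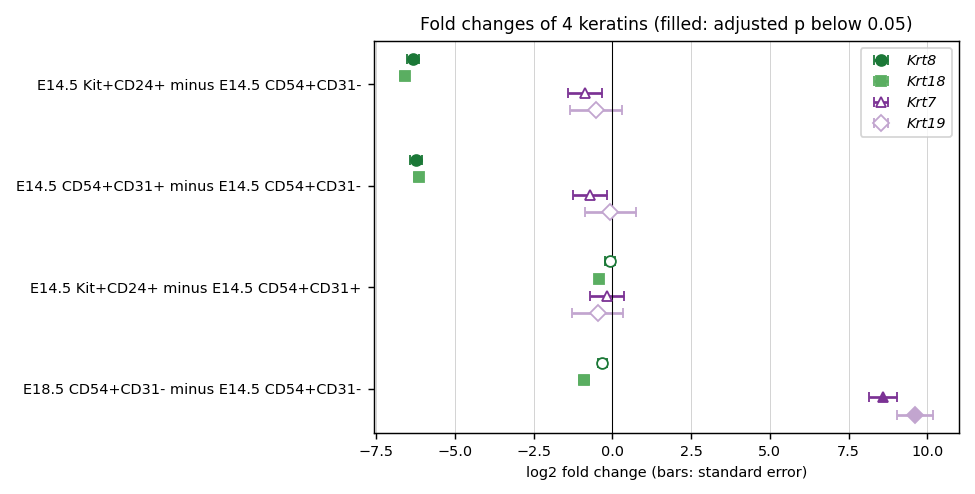
Log2 fold change of 4 keratins in each comparison from edgeR, with standard errors as bars and filled symbols for adjusted p below 0.05. Krt8 and Krt18 lie below -6 in both comparisons with CD324+ (E14.5 CD54+CD31-) cells at E14.5, and Krt7 and Krt19 lie at 8.59 and 9.60 between the ages.

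*Krt23* was present at a low level in both CD54+CD31- populations. It had 99, 86, and 125 counts in CD324+ libraries, 0, 4, and 9 in CD31+ libraries, 0 in all 3 P2 libraries, and 177, 184, and 149 in E18.5 libraries. The levels were 2.86 ± 0.197, 0.0713 ± 0.0713, 0, and 2.39 ± 0.338 CPM (SD, n = 3 each). Taking 3 counts per library as the limit that a count of 0 allows, *Krt23* was at least 45.4-fold higher in CD324+ than in P2 cells, and it was 40.2-fold higher in CD324+ than in CD31+ cells. These are the values that chose the gene. The 2 CD54+CD31- populations overlapped, with 2.71 to 3.08 CPM at E14.5 and 2.06 to 2.74 CPM at E18.5.

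The order of the 4 populations differed among the members. For *Krt8* and *Krt18* it was CD324+, E18.5 CD54+CD31-, CD31+, and P2 cells, with CD31+ and P2 cells overlapping for *Krt8*. *Krt23* had the same order, with an overlap between its first 2 populations and between its last 2. For *Krt7* and *Krt19* the E18.5 cells came first, and the 3 E14.5 populations, in the order CD324+, CD31+, and P2, did not differ beyond their spread. Across the 12 libraries, Pearson's r of log2(CPM + 1) was 0.999 between *Krt7* and *Krt19*, 0.996 between *Krt8* and *Krt18*, and 0.994 between *Krt23* and each of *Krt8* and *Krt18*. Between the groups of genes it was 0.47 to 0.56. These values describe 12 points in 4 populations, and they mostly rest on the population means. *Krt23* was chosen for its difference between CD324+ and P2 cells, whose libraries are among the 12. Its order and its correlations with *Krt8* and *Krt18* follow in part from that choice.

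Levels of different genes were compared per kb of exon. In CD324+ cells, *Krt18* was at 386 ± 13.1 CPM per kb (SD, n = 3) and *Krt8* at 125 ± 8.59 CPM per kb, ranks 76 and 237 of 16617 genes. *Krt19* and *Krt7* ranked 12610 and 13811. In E18.5 cells, *Krt18* was at 181 ± 29.4, *Krt19* at 168 ± 60.6, *Krt8* at 87.5 ± 14.1, and *Krt7* at 39.9 ± 16.0 CPM per kb, ranks 77, 85, 191, and 524. The type I member *Krt23* was at 1.83 ± 0.126 CPM per kb in CD324+ cells and 1.53 ± 0.216 at E18.5, ranks 9230 and 10336.

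The make-up of the RNA of the 5 members, without *Krt20*, therefore differed between the 2 CD54+CD31- populations, in which age and lung RNA differ together. Per kb of exon, *Krt18* made up 75.3% ± 0.699 (SD, n = 3) and *Krt8* 24.3% ± 0.700 of the 5 keratins in CD324+ cells. At E18.5, *Krt18* made up 38.4% ± 3.32, *Krt19* 34.5% ± 3.78, *Krt8* 18.6% ± 1.58, and *Krt7* 8.16% ± 1.17. Without replicate 1 these shares were 40.3%, 32.4%, 19.4%, and 7.49%. They depend on the length used, above all for *Krt7*, whose merged exons of 7049 bases include noncoding transcripts, against a coding length of 1371 bases. Per kb of coding sequence, *Krt19* made up 32.3% ± 2.38, *Krt18* 26.7% ± 3.20, *Krt7* 25.6% ± 2.71, and *Krt8* 15.2% ± 1.80 at E18.5 (31.1%, 28.5%, 24.0%, and 16.2% without replicate 1), so the order turned both between *Krt18* and *Krt19* and between *Krt7* and *Krt8*. The summed level of the 5 was 803 ± 35.6 CPM in CD324+ cells, 1026 ± 293 in E18.5 cells, 12.1 ± 1.96 in CD31+ cells, and 9.65 ± 0.402 in P2 cells. Of the E18.5 libraries, replicate 1 had 1364 CPM and the others 837 and 878. The order of the means of CD324+ and E18.5 cells depends on the scale. Per kb of exon the sum was 513 ± 21.5 in CD324+ and 478 ± 119 in E18.5 cells (SD, n = 3). Per kb of coding sequence it was 607 ± 26.3 and 786 ± 226.

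**Figure D3:**
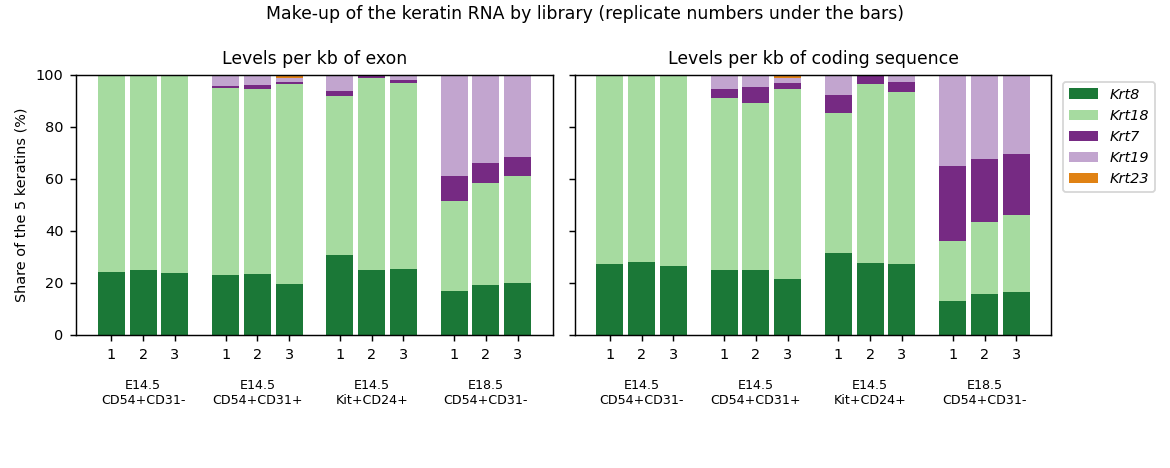
Share of each of the 5 keratins in their summed level per library, per kb of exon (left) and per kb of coding sequence (right), with replicate numbers under the bars. Krt8 and Krt18 fill nearly the whole bar in the 3 CD54+CD31- libraries at E14.5, and Krt19 and Krt7 take a large part of the 3 libraries at E18.5, where the part of Krt7 is larger on the coding scale.

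Since a filament pairs a type II with a type I keratin, the ratio of their RNA was computed in each library. Only the members entered it. *Krt20*, a type I keratin at 314 CPM in CD324+ cells and 2.38 to 23.3 CPM at E18.5, was left out. The ratio of type II (*Krt7* and *Krt8*) to type I (*Krt18*, *Krt19*, and *Krt23*) per kb of exon was 0.322 ± 0.0123 (SD, n = 3) in CD324+, 0.30 ± 0.0454 in CD31+, 0.393 ± 0.0730 in P2, and 0.365 ± 0.00835 in E18.5 cells. The values were 0.321, 0.334, and 0.310 in CD324+ libraries and 0.357, 0.364, and 0.373 in E18.5 libraries, without overlap. Its log2 difference was 0.18 (exact two-sided permutation p = 0.1, the smallest that 3 against 3 can give, adjusted p = 0.133 over 8 comparisons), 0.20 without replicate 1, and 0.86 per kb of coding sequence. Among the members, type I RNA was in excess in all 12 libraries on both scales.

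The ratio of *Krt8* to *Krt18* alone was 0.322, 0.336, and 0.311 in CD324+ libraries and 0.482, 0.485, and 0.480 in E18.5 libraries. The E18.5 libraries lay close together, replicate 1 included, although its summed hepatoblast level was 5930 CPM against 51099 and 67057 CPM. The log2 difference was 0.58 (exact permutation p = 0.1, adjusted p = 0.133), and 0.58 without replicate 1. In CD31+ libraries the ratio was 0.322, 0.333, and 0.251, and in P2 libraries 0.499, 0.340, and 0.354. CD31+ and CD324+ cells overlapped (log2 difference -0.11, exact permutation p = 0.7). P2 cells lay above CD324+ cells by 0.28 on the log2 scale (exact permutation p = 0.1, adjusted p = 0.133), with P2 replicate 1 farthest from the others, and by 0.10 without that library.

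Several marker lists moved with *Krt7* and *Krt19* between the ages. At E18.5 all 12 biliary genes, all 9 mesothelial genes, all 9 alveolar type 2 genes, and all 9 alveolar type 1 and airway genes had means of at least 1 CPM, against 7, 3, 2, and 2 in CD324+ cells. Their summed levels were 995 to 1255 CPM (biliary), 496 to 741 (mesothelial), 10683 to 22790 (alveolar type 2), and 1378 to 3292 (alveolar type 1 and airway), and in CD324+ libraries 156 to 179, 6.22 to 9.69, 155 to 169, and 16.2 to 17 CPM. *Nkx2-1* was the list gene at 0 counts in CD324+ cells. In CD324+ cells nearly all of the alveolar type 2 sum was *Abca3* (157 CPM), which was at 239 CPM in P2 cells. The list of 10 mesenchymal genes summed to 4225 to 4459 CPM at E18.5, against 1169 to 1222 CPM in CD324+ libraries. *Col1a1* alone was at 1648 CPM at E18.5 and 47.9 CPM in CD324+ cells, where the sum rested mostly on other genes of the list. Which of these cells carried *Krt7* and *Krt19* was not tested.

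Among the E18.5 libraries, replicate 1 had 1.91 times the mean *Krt7* level of replicates 2 and 3, 1.79 times that of *Krt19*, and 1.29 times that of both *Krt8* and *Krt18*. For *Krt23* the value was 1.23. The alveolar type 2 list was at 2.12 times, the alveolar type 1 and airway list at 2.34, the mesothelial list at 1.41, the biliary list at 1.25, and the hepatoblast list at 0.10 times. *Alb* (albumin) was 2405 CPM in it, against 26609 and 34537 CPM. Replicates 2 and 3, with the higher hepatoblast sums, had 213 and 219 CPM of *Krt7* and 248 and 244 CPM of *Krt19*. The part of these lists in the keratin levels was not tested.

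**Figure D4:**
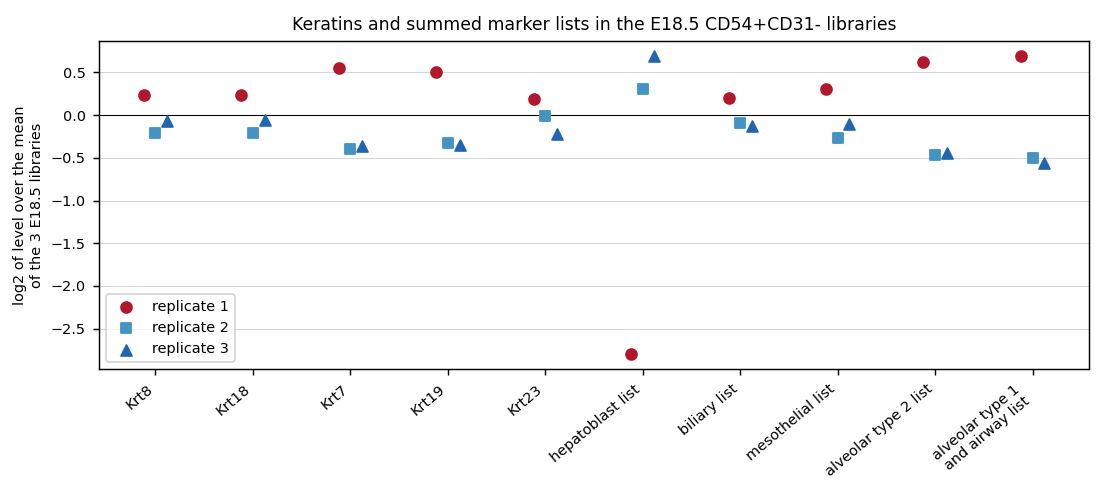
Level of each keratin and summed level of 5 marker lists in the 3 E18.5 CD54+CD31- libraries, as log2 of the level over the mean of the 3. Replicate 1 is highest for all 5 keratins and for the biliary, mesothelial, and both lung lists, and lowest for the hepatoblast list, where it had 5930 CPM.

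Genes most like each member were taken by Pearson's r of log2(CPM + 1) over the 12 libraries. For *Krt7* they were *Lad1* (ladinin), *Sftpa1* (a surfactant protein), and *Lgi3*, each at r = 0.999. For *Krt19* they were *Nbl1* (a BMP antagonist), *Cxcl15* (a chemokine of lung), and *Sftpb* (a surfactant protein), at 0.999 each. *Sftpb* was at 1727 ± 708 CPM at E18.5 and at 0.418 ± 0.230 CPM in CD324+ cells. *Krt7*, *Krt19*, and these like genes all had means below 1 CPM in every E14.5 population and higher ones at E18.5. Their r values therefore mostly describe that difference, which any gene seen only at E18.5 would share. For *Krt8* they were *Chmp4c* (an ESCRT-III subunit, 0.998), *Cgn* (cingulin of tight junctions, 0.998), and *Dsp* (desmoplakin, 0.997). For *Krt18* they were *Slc39a4* (a zinc transporter, 0.998), *Dlk1* (a hepatoblast surface protein, 0.998), and *Cgn* (0.997). For *Krt23* they were *Hc* (complement C5, 0.996), *Chmp4c* (0.995), and *Slc39a4* (0.995), which follows in part from how *Krt23* was chosen. *Hc* was at 677 ± 23.3 CPM in CD324+ cells, 6.19 ± 0.514 in P2 cells, and 525 ± 105 at E18.5.

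Of the 50 other keratin genes, 8 had 0 counts in all 12 libraries and 8 reached a mean of 1 CPM in any population. *Krt20*, a type I keratin of gut and urothelium, was at 314 CPM in CD324+ cells. It fell in P2 (log2 fold change -6.68 ± 0.13, SE; adjusted p = 1.24e-10, edgeR) and in CD31+ cells (-6.43, adjusted p = 1.80e-10, edgeR), as *Krt8* and *Krt18* did. Unlike them it was also far lower at E18.5 (-4.26 ± 0.77, SE; adjusted p = 0.00246, edgeR), with 2.38 CPM in replicate 1 and 17.9 and 23.3 CPM in replicates 2 and 3, and a log2 fold change of -3.76 without replicate 1. Replicate 1 was at 0.116 times the others for *Krt20*, beside 0.10 times for the hepatoblast list.

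The other keratins of the E18.5 cells were low. Of the 12 tested, 8 were higher and 2 lower than in CD324+ cells (median log2 fold change 5.08, or 4.47 with 2 genes that had 0 counts in a whole population set at 3 counts per library, beside 0.03 for all genes tested, of which 35.9% were higher and 33.5% lower). Only 3 other keratins were tested in the E14.5 fit. The 8 higher ones were near 0 in CD324+ cells and passed the count filter through the E18.5 libraries. Their count and the median follow from that filter and are a description only. *Krt15* and *Krt14* were at 11.9 and 3.88 CPM, and *Krt80* was at 9.65 CPM. *Krt5* did not pass the test (log2 fold change -0.81 ± 0.74, SE; adjusted p = 0.360, edgeR). As a description, the log2 fold change was 7.31 ± 0.83 (SE) for *Krt15* and 6.51 ± 0.70 (SE) for *Krt80*, or 6.42 and 5.82 without replicate 1. *Krt87*, at 3.10 CPM, had 0 counts in every CD324+ and P2 library, and it lies next to *Krt7* on the opposite strand. *Krt88* was at 1.45 CPM. *Krt10*, a keratin of stratified epidermis, was at 1.02 to 1.77 CPM in all 4 populations, and *Krt222* was highest in CD31+ cells at 1.66 CPM.

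**Figure D5:**
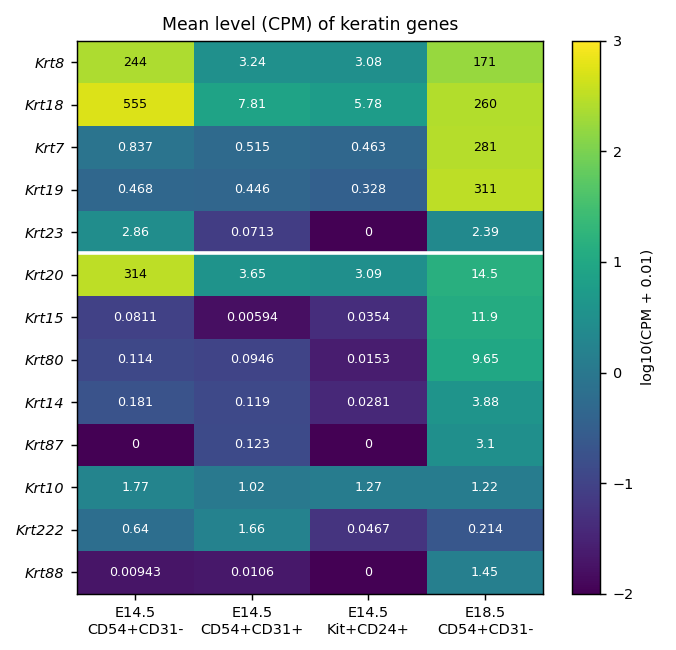
Mean level in CPM of the 5 keratins (above the white line) and of the 8 other keratins that reached 1 CPM in any population (below it), with color as log10(CPM + 0.01). Krt20 is at 314 CPM in E14.5 CD54+CD31- cells and at 14.5 CPM at E18.5, and the other 7 stay at or below 11.9 CPM in all 4 populations.

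Keratin filaments are anchored by desmosomes and hemidesmosomes through plakins and plakophilins. Of 15 such linker genes tested, 12 were lower and 2 higher in P2 than in CD324+ cells (median log2 fold change -4.07, beside -0.01 for all genes). Over all genes tested in this comparison 36.1% were lower and 33.8% higher, in CD31+ against CD324+ cells 34.0% and 31.7%, in P2 against CD31+ cells 39.4% and 34.3%, and between the ages 33.5% and 35.9%, and the list counts below stand beside these shares. *Dsp*, which ties keratin to the desmosome, was at 472 ± 40.4 CPM in CD324+ cells and 5.55 ± 0.195 CPM in P2 cells (log2 fold change -6.43 ± 0.14, SE; adjusted p = 1.95e-10, edgeR). The desmosomal cadherins *Dsc2* (-6.37) and *Dsg2* (-6.31) fell alike. The 2 that rose were *Itga6*, an integrin of hemidesmosomes that blood cells also carry, and *Tchp*, at 1.05 each. In CD31+ cells, 9 were lower and 4 higher (median -2.09), and the higher ones included *Itga6* (4.84), *Plec*, the linker plectin (1.86), and *Jup*, plakoglobin, which is also part of endothelial junctions (0.70, adjusted p = 0.0305, edgeR).

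At E18.5, 8 of 16 linkers were higher and 3 lower than in CD324+ cells (median 0.93, beside 35.9% and 33.5% of all genes). *Dsp* did not pass the test (0.07 ± 0.14, SE; adjusted p = 0.697, edgeR) and was at 435 ± 45.5 CPM. *Evpl* and *Ppl*, the linkers envoplakin and periplakin, rose by 4.35 and 4.07, and *Itga6* by 3.92. *Plec* rose by 2.03 and *Jup* by 1.49, while *Dsc2* fell by 1.97. Without replicate 1 the log2 fold changes were 4.03 (*Evpl*), 3.77 (*Ppl*), 3.6 (*Itga6*), 1.80 (*Plec*), 1.22 (*Jup*), -1.55 (*Dsc2*), and -0.03 (*Dsp*, adjusted p = 0.814, edgeR).

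Of the other intermediate filament genes, 12 were tested in each fit. *Vim* (vimentin) was at 1263 CPM in CD31+, 46.5 in CD324+, 40.8 in P2, and 274 in E18.5 cells. It rose in CD31+ against CD324+ cells (4.76 ± 0.43, SE; adjusted p = 3.96e-06, edgeR) and at E18.5 (2.75 ± 0.19, SE; adjusted p = 4.29e-05, edgeR), and did not pass the test in P2 cells (-0.21, adjusted p = 0.635, edgeR). *Nes* (nestin) rose by 5.62 in CD31+ cells and by 1.75 at E18.5. P2 cells, low in keratins and in vimentin alike, had the nuclear lamins *Lmnb1* at 567 and *Lmna* at 178 CPM, and *Nefh*, a neurofilament gene, at 7.94 CPM (log2 fold change 4.71 against CD324+ cells, adjusted p = 4.90e-07, edgeR). Against CD324+ cells, 5 were higher and 3 lower in the P2 population (median log2 fold change 0.16), 6 and 4 in the CD31+ population (0.55), and 4 and 6 at E18.5 (-0.49). Without replicate 1, *Vim* was at 2.66 and *Nes* at 1.74 between the ages.

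The list of epithelial regulators held liver transcription factors and general epithelial factors. Of 13 tested, 10 were lower and 1 higher in P2 than in CD324+ cells (median -5.13), among them *Foxa2* (-6.92) and *Hnf4a* (-6.21), transcription factors of hepatoblasts. The higher one was *Klf5* (2.20). In CD31+ cells 7 were lower and 1 higher, the latter *Klf4* (3.56). At E18.5, 14 of 17 were higher than in CD324+ cells and 1 lower (median 3.71). The genes tested here beyond the 13 of the E14.5 fit passed the count filter through the E18.5 libraries. All of these were called higher, so the count and the median follow in part from the filter. *Esrp1*, an epithelial splicing factor, rose by 7.99, *Grhl2* by 7.91, and *Klf5* by 7.85. *Grhl2*, a regulator of epithelial junction genes, was at 88.0 CPM at E18.5 and at most 0.474 CPM in the E14.5 populations, a pattern like that of *Krt7* and *Krt19*. *Sox9*, a factor of biliary and lung progenitors named here after its values were seen, rose by 3.43, and *Hnf4a* was the one that fell, by 2.30. Without replicate 1 these were 7.82 (*Esrp1*), 7.69 (*Grhl2*), 7.57 (*Klf5*), 3.37 (*Sox9*), and -1.79 (*Hnf4a*).

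A further list held repressors of epithelial genes. *Zeb1* was at 68.2 CPM in CD324+, 418 in CD31+, 74.5 in P2, and 44.3 in E18.5 cells, and *Zeb2* at 50, 376, 159, and 99.6 CPM. Of the 5 tested, 4 were higher in CD31+ than in CD324+ cells (median 2.61), among them *Twist1* (6.03), *Zeb2* (2.90), and *Zeb1* (2.61). In P2 against CD324+ cells *Zeb2* rose by 1.65 and *Snai1* (-5.31) and *Snai2* (-2.06) fell. In P2 cells all 5 were lower when set against CD31+ cells (median -4.42). At E18.5, 3 of 6 were higher and 3 did not pass the test. *Twist2* was tested in this fit only, where it passed the count filter through the E18.5 libraries. The higher ones were *Twist2* (5.53), *Snai2* (1.87), and *Zeb2* (1.18), at 5.53, 1.92, and 1.35 without replicate 1. Their part in the keratin levels was not tested.

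Of 16 genes whose proteins bind, modify, or cleave keratins, 5 were higher and 5 lower in P2 than in CD324+ cells, the same numbers in CD31+ cells, and 4 and 8 at E18.5 (medians -0.01, 0.00, and -0.24). *Tgm2*, a transglutaminase that cross-links keratins, fell by 2.30 in P2 cells, by 2.52 in CD31+ cells, and by 1.55 at E18.5. *Hspa1a*, a heat shock protein, rose by 2.28 at E18.5 from 0.216 to 0.943 CPM. Without replicate 1, *Tgm2* was at -1.45 and *Hspa1a* at 2.54. The partner counts at E14.5, 5 and 5 of 16, lie near the shares of all genes. Without E18.5 replicate 1, the genes higher and lower between the ages were 8 and 2 of 11 other keratins, 9 and 5 of 16 linkers, 4 and 7 of 13 other intermediate filament genes, 15 and 1 of 17 epithelial regulators, 3 and 1 of 6 repressors, and 4 and 8 of 16 partners. The counts of other keratins, regulators, and repressors include genes that passed the count filter only through the E18.5 libraries.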

How the data were processed

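The authors trimmed single-end reads with cutadapt 1.11, aligned them to GRCm38 with STAR 2.5.0a, and counted them per gene with featureCounts 1.4.6-p3, as their processing notes and methods state. Strand and multiple alignments in counting are not given in the sources used here. They deposited raw counts and, per gene, a score, equal to the count times a library-wide factor after rounding. Tests used the counts, and the score only to read each factor. GENCODE vM21 gave positions and lengths for 37932 of 38127 identifiers.

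The members and lists were chosen with earlier results of these data known. R 4.3.3 with edgeR 4.0.16 (TMM, filterByExpr, quasi-likelihood test, Benjamini-Hochberg adjustment, threshold 0.05) fitted the 9 E14.5 libraries together and the 6 CD54+CD31- libraries separately. The fits were also run on simulated counts modeled on the E14.5 libraries, with few genes changed. That run checks the code, and not the spread of these libraries or the E18.5 fit. Standard errors derive from the fold change and the F statistic. At these depths 3 counts are worth under 0.1 CPM per library, and the 3 libraries per population limit the precision. The floor of 3 counts covers counting error only, whereas SDs and standard errors include the spread between libraries.

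Genes named were the members, the 3 genes most like each over the 12 libraries, other keratins with a population mean of at least 1 CPM, the 3 largest called changes per direction and list, and genes of defining role. *Sox9*, *Trf*, *Alas2*, and *Krt5* were added after their values were seen. Alternatives were DESeq2 1.42.0, its size factors, other filters and fits, the replicate number as a block, each library left out, and, added after the data were examined, the authors' factors and coding length. Replicate numbers come from the labels. Deviations of same-numbered libraries correlated in every pair only between CD31+ and CD324+ cells (r = 0.334, 0.260, and 0.122), and the block changed no member's call there. A few genes of the lists and 1 promoter site are not reported here.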

Additional observations from a re-analysis of the deposited data

How the results depend on the processing

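The calls of *Krt8* and *Krt18* in P2 and CD31+ against CD324+ cells, and those of *Krt7*, *Krt19*, and *Krt18* between the ages, kept their direction and their side of the threshold under every alternative that gave a value. With the authors' factors, the median log2 fold change of all genes moved from -0.01 to -0.27 in P2 against CD324+ cells, from -0.13 to -0.50 in P2 against CD31+ cells, and from 0.03 to 0.27 between the ages, and the share of called genes that were higher from 48.3% to 38.2%, from 46.6% to 33.9%, and from 51.7% to 60.9%. In that setting *Krt8* was lower in P2 than in CD31+ cells (-0.46, adjusted p = 0.0282, edgeR), near the shift of the median, and *Krt19* in CD31+ against CD324+ cells turned to 0.053. *Krt8* between the ages passed with all 12 libraries in 1 fit (-0.51, where the median moved to -0.14) and without E18.5 replicate 1. *Krt18* in P2 against CD31+ cells did not pass with only the 6 libraries compared (-0.40). Leaving out 1 library gave, for P2 against CD324+ cells, -1.65 to 0.19 for *Krt19* and -1.32 to -0.64 for *Krt7*, for CD31+ against CD324+ cells -0.47 to 0.59 for *Krt19* and -1.29 to -0.42 for *Krt7*, for P2 against CD31+ cells -0.53 to 0.40 for *Krt7*, -0.21 to 0.055 for *Krt8*, -0.53 to -0.28 for *Krt18*, and -1.51 to 0.035 for *Krt19*, and between the ages -0.48 to -0.23 for *Krt8*. *Krt19* was not kept by the filter of 10 counts in every library in the E14.5 fit and has no value there. The order of the 4 population means was kept by 2 of the 5 members with CPM of the plain total and by 3 with the authors' factors. For CD31+ against CD324+ cells, the log2 difference of the type II to type I ratio was 0.0090 without length, 0.018 per coding length, and -0.20 to 0.016 with 1 library left out, and that of *Krt8* to *Krt18* was -0.18 to 0.021. With 1 library left out, P2 cells differed from CD324+ cells by 0.13 to 0.36 (type II to type I) and 0.10 to 0.38 (*Krt8* to *Krt18*), and from CD31+ cells by 0.24 to 0.48 and 0.21 to 0.49. The cause of these changes was not tested. With the replicate block, *Krt18* was at -6.60 in P2 and -6.16 in CD31+ against CD324+ cells and *Krt8* at -6.33 and -6.26, and the block changed no call of a member and moved no count of calls by over 1.5 times. Low counts limit *Krt7* and *Krt19* at E14.5.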
